A study of Homo sapiens with 6 samples.

Results

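The genes described here encode the receptors through which nerve cells sense glutamate, GABA, glycine, acetylcholine and serotonin, measured in a breast cancer line in which ING2 was depleted. They were chosen by gene symbol, with earlier results of these data known. The rule took probe sets annotated to 1 gene whose symbol belongs to a receptor series. The series were glutamate (GRIA, GRID, GRIK, GRIN and GRM), GABA-A (GABR), nicotinic (CHRN), glycine (GLRA and GLRB) and serotonin (HTR). The rule found 77 of the 19777 genes measured, through 155 probe sets. Of these, 72 are receptor genes and 5 carry a receptor's symbol without being one: the antisense RNAs GRID1-AS1, GRIK1-AS1, GRIK1-AS2 and GABRG3-AS1, and the pseudogene HTR7P1. Counts, shares and medians given below for the receptor genes as a whole, or for their promoter windows, cover the 77 unless the 72 are named. Each gene is given by its brightest probe set, judged by the mean log2 intensity of all arrays.

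All 6 samples were MDA-MB-231, an established human breast cancer line that lacks the estrogen receptor and has mesenchymal features. In 3 samples the cells received a non-targeting control siRNA, and in 3 they received an siRNA against ING2, delivered with a lipid reagent. A single ING2 siRNA is named in the labels, which give 2 times for the harvest, 4 days after transfection in the treatment notes and 3 days in the extraction notes. ING2 is a PHD finger protein that binds trimethylated histone H3 and belongs to a SIN3 histone deacetylase complex. Whether the replicates came from separate cultures is not stated in the labels. The p-values therefore reflect only sample-to-sample spread in these arrays, some or all of which may be technical. In bulk RNA, fewer cells with a transcript and less transcript per cell cannot be told apart.

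Ionotropic glutamate receptors are tetramers that open a cation channel when glutamate binds, and are grouped as AMPA, kainate, NMDA and delta receptors. GABA-A, glycine, nicotinic and HTR3 receptors are pentameric channels of the Cys-loop superfamily. The metabotropic glutamate receptors and all serotonin receptors other than HTR3 act through G proteins. Many of these genes are transcribed mainly in neurons. In other cells REST, a zinc finger repressor, binds a DNA element called RE1 at neuronal genes and recruits SIN3 and CoREST complexes with their deacetylases.

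The targeted gene was lower in every ING2 siRNA sample. The ING2 signal was 1400, 1349 and 1324 intensity units on the control arrays and 163, 188 and 161 units with ING2 siRNA. It fell to 12.5% of control (limma adjusted p = 1.85e-07, Benjamini-Hochberg over all genes). Identity markers of the line ran from 9.01 for EGFR to 13.90 for the filament gene VIM in mean log2 intensity over the arrays. ZEB1 read 10.95, CD44 12.02, AXL 12.93 and CAV1 13.22. Of 6 luminal breast genes, PGR, FOXA1 and CDH1 read 3.66, 4.82 and 5.66. ESR1, which encodes the estrogen receptor, read 6.75 and GATA3 read 7.91. KRT19, at 12.51, lay within the range of the line's own markers. Of 4 glial genes, AQP4, OLIG2 and GFAP read 3.90, 5.12 and 6.48, and MBP read 11.07.

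Promoter sequences are shown for the receptor genes on which the results turn and for which RefSeq windows were given, together with that of GRIA2, which held a match to the REST element. Windows were the 250 bases before an annotated transcript start (RefSeq, GRCh38.p14), and 61 of the 77 genes had at least 1, giving 84 windows. Both strands were searched for the RE1 consensus of 21 bases, which joins the left arm TTCAGCACC, 2 free bases and a right arm that begins with GGACAG. The left arm was also searched alone, and of the right arm only its first 6 letters, GGACAG. These matches overlap those of the whole element. The GC box GGGCGG was searched too. Capitals mark every match.
GRIA2, chr4:157220369-157220618, plus strand: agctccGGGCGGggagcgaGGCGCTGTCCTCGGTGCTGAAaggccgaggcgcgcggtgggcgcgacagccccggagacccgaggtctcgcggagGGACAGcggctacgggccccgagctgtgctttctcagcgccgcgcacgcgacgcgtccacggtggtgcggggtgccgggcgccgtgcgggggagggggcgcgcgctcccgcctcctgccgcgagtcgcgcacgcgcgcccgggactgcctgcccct
GLRB, chr4:157075900-157076149, plus strand: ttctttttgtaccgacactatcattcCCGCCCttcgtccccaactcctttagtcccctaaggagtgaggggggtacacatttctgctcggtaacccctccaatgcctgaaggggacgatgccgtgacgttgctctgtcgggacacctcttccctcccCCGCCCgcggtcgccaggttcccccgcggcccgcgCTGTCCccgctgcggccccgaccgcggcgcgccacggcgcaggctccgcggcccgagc
GRIA4, chr11:105609744-105609993, plus strand: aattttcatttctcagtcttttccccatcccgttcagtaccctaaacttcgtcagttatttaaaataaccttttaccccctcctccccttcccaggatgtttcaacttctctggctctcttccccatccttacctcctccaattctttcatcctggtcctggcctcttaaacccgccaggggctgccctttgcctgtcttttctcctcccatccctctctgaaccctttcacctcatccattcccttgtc
GABRA2, chr4:46390301-46390550, minus strand: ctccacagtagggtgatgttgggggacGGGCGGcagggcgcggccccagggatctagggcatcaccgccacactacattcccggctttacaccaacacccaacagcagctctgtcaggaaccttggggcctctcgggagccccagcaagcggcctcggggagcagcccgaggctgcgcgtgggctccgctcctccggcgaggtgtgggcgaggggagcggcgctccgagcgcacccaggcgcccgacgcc

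The window before the third of 3 annotated GRIA2 starts, counted from the most upstream, held the complete RE1 consensus on the opposite strand, as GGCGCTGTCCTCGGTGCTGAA on the strand printed, with its first base 231 before the start. Only 2 of 35116 promoter windows in the table (0.0057%) held it, and this was the 1 among the receptor windows. The left arm alone was in 2 of 84 receptor windows, those of GRIA2 and the presynaptic glutamate receptor gene GRM2, or 2.38% against 0.288% of all windows. GGACAG was in 26.2% of receptor windows and 17.2% of all, and the GC box in 42.9% and 42.6%. The most upstream window of GRIA4 held none of these motifs, that of GABRA2 held 1 GC box, and that of GLRB held 2 GC boxes and 1 GGACAG. A match describes letters in a window, not a bound site. The search took exact letters before a start only, in the 61 of 77 genes with a window. The lack of a match therefore does not show that a gene has no RE1. For GLRB and GABRA2, as for GRIA4, the most upstream of several annotated windows is shown.

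The receptor genes gave weak signals on these arrays. Their mean log2 intensity ran from 3.06 (GABRR1, percentile 2.00 of all genes) to 8.89 (CHRNB2, percentile 68.4), with a median of 5.604 against 7.45 over all genes, and 68 of 77 lay below the median gene. Signal depends on the probes as well as on the transcript, so these figures describe brightness on the array and do not rank the genes by mRNA. As a reference for weak signal, 82 olfactory receptor genes, whose products serve smell in the nose, had a median of 5.21 and a 95th percentile of 6.61. Of the 77 genes, 63 were at or below that value and 14 above it: CHRNB2, GLRB, GRIK5, GRIK2, HTR4, GRIN1, CHRNB1, CHRNA3, CHRNA2, HTR5A, GRM2, GRM4, HTR7 and GRM8. Of the 12 brightest, GRIK5, GRIN1, CHRNA3 and GRM2 were read by probe sets with the suffix _x_at, which the array's maker uses for probes that may bind other transcripts; 5.79% of all genes were.

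**Figure D1:**
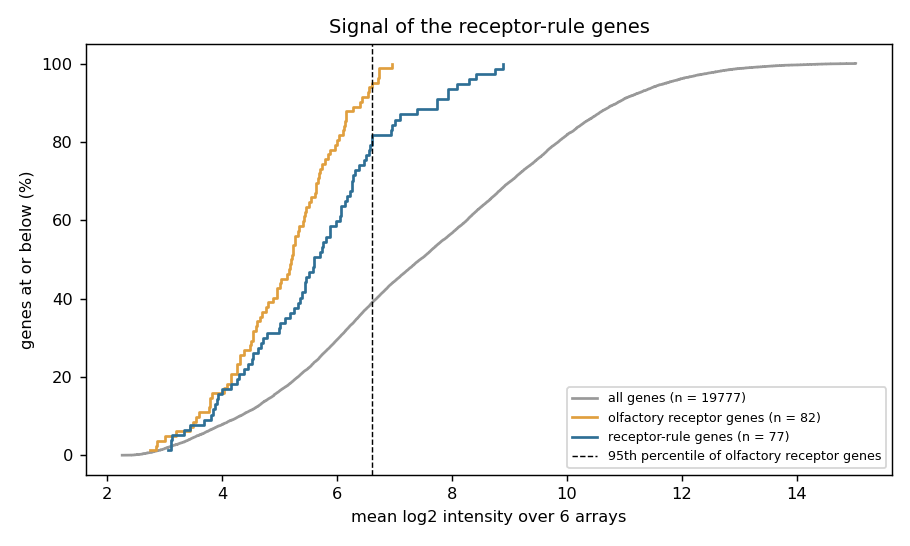
Cumulative share of genes (%) against mean log2 intensity over the 6 arrays, for all 19777 genes, 82 olfactory receptor genes and the 77 genes with receptor symbols. The receptor curve lies left of that of all genes, and 14 of its genes pass the dashed line at 6.61, the 95th percentile of the olfactory receptor genes.

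Of the 77 genes, 3 rose and 1 fell past a limma adjusted p of 0.05. The share of all genes was 3.62% higher and 4.67% lower, so 3 rises among 77 (3.90%) are close to the background. The genes that rose were the AMPA receptor subunit gene GRIA4, the serotonin receptor gene HTR2B and the GABA-A subunit gene GABRA2, and the gene that fell was GLRB, the beta subunit of the glycine receptor. The calls depended on single arrays. With control replicate 2, control replicate 3, ING2 siRNA replicate 1 or ING2 siRNA replicate 3 left out, limma called 0 of the 77 genes, while 14, 16, 15 and 15 of them had an unadjusted p under 0.05, against 22 with all arrays. In the same 4 fits 2, 3, 3 and 2 of all genes were called, against 1640 with all arrays. An unadjusted limma p under 0.05 was found there for 4562, 4645, 5065 and 4583 of all 19777 genes, against 6515 with all arrays. Without ING2 siRNA replicate 2, 7 receptor genes were called higher and 1 lower.

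GLRB anchors glycine receptors to the scaffold protein gephyrin at inhibitory synapses. On chromosome 4 (GeneID 2743), it read 507, 603 and 539 units in control cells and 365, 346 and 309 units in ING2 siRNA cells. The groups did not overlap, and all ING2 siRNA arrays lay below the lowest control. The level fell to 61.8% of control, or -0.69 on the log2 scale (SE 0.10, n = 3 each, limma adjusted p = 0.0169). GLRB was the receptor gene with the largest change in either direction, and its intensity bin had a median change of -0.01 over all genes. The other GLRB probe sets were lower as well: the second had a change of -0.84 (SE 0.15, limma adjusted p = 0.0150 over 41091 probe sets), and the dimmest had -0.49 and missed the threshold (SE 0.15, adjusted p = 0.0740). Values without 1 array ran from -0.75 to -0.63, with adjusted p from 0.0108 to 0.117. GPHN, the gene for gephyrin, stood at 0.07 (limma adjusted p = 0.547).

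The ligand-binding glycine receptor subunit genes were dim and went the other way in sign. GLRA2, GLRA1 and GLRA3 had log2 changes of 0.20, 0.21 and 0.13 (SE 0.10 to 0.11), none past the threshold. The medians of their intensity bins over all genes were 0.15, so these values lay close to those of genes of like signal.

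GRIA4, on chromosome 11 (GeneID 2893), encodes an AMPA receptor subunit with fast gating. Its brightest probe set read 25.8, 25.4 and 32.4 units in the controls and 45.7, 38.1 and 43.1 units with ING2 siRNA. The ING2 siRNA arrays all lay above the highest control, and GRIA4 rose 1.52-fold (log2 0.61, SE 0.11, limma adjusted p = 0.0251). The other 2 GRIA4 probe sets read between 4.90 and 7.27 units in every array and had values of -0.01 each. The mean over its probe sets was accordingly 0.20, with an adjusted p of 0.0997. Among the other AMPA subunit genes GRIA2, which sets the calcium permeability of the channel, read 18.4, 15.7 and 18.1 units in controls and 22.3, 20.2 and 21.4 units with ING2 siRNA. Its groups did not overlap, and its value of 0.30 (SE 0.09) missed the threshold (limma adjusted p = 0.0647), with 0.03 and 0.11 for its dimmer probe sets. Values for GRIA3 (0.20) and GRIA1 (0.05) did not pass, and GRIA3 was separate between the groups by a narrow margin, 54.3 units in the highest control and 55.1 in the lowest ING2 siRNA array.

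HTR2B, a serotonin receptor coupled to phospholipase C, lies on chromosome 2 (GeneID 3357) and has 1 probe set. It read 11.1, 12.7 and 13.2 units in controls and 16.1, 17.1 and 15.3 units with ING2 siRNA. It rose 1.31-fold (log2 0.39, SE 0.09, limma adjusted p = 0.0359), from a signal at percentile 6.57 of all genes. GABRA2 on chromosome 4 (GeneID 2555), an alpha subunit of the receptor's GABA-binding interface, read 7.47, 7.79 and 7.52 units in controls and 11.2, 8.79 and 9.75 units with ING2 siRNA. It rose to 130.1% of control (log2 0.38, SE 0.10, limma adjusted p = 0.0458), from percentile 2.25; in the fit over single probe sets it missed the threshold (adjusted p = 0.0539). Of the 4 GABRA2 probe sets 2 had values below 0, the lowest -0.06, and the mean over them was 0.14 (adjusted p = 0.254). Neither HTR2B nor GABRA2 passed after quantile normalization, cyclic loess or median centring, while GRIA4 and GLRB passed in all 3.

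**Figure D2:**
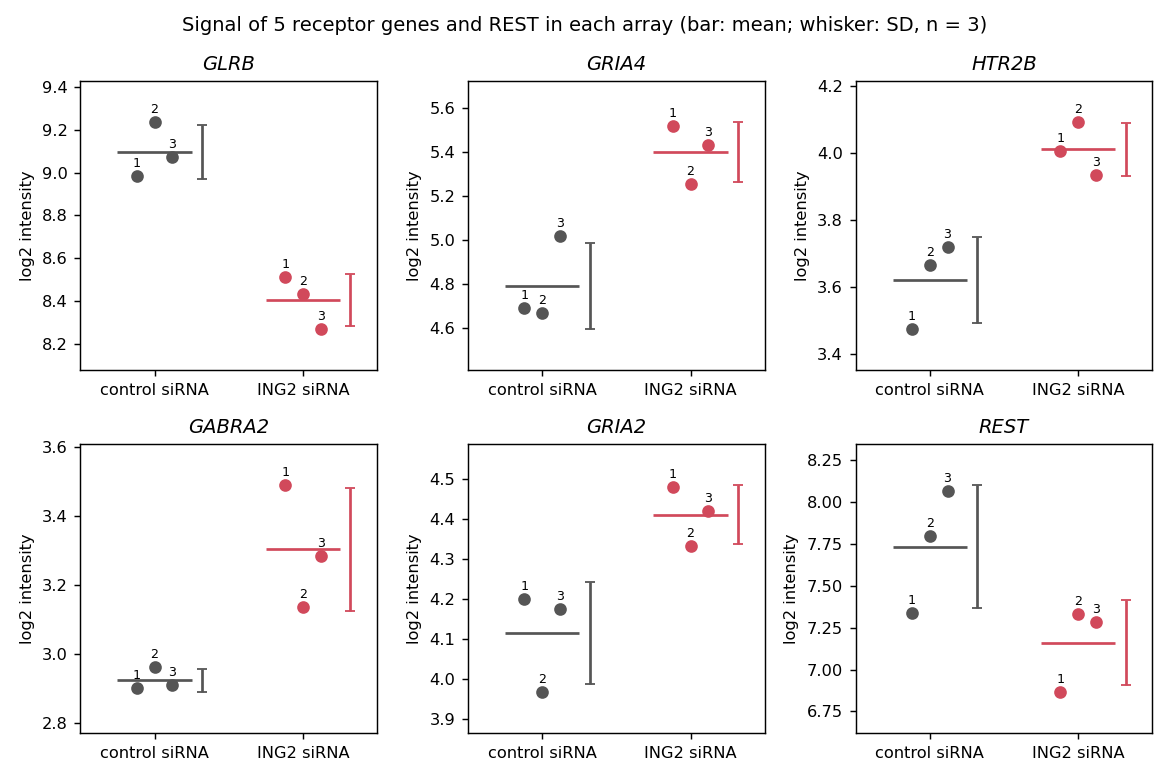
Log2 intensity in each of the 3 control and 3 ING2 siRNA arrays (numbered by replicate) for GLRB, GRIA4, HTR2B, GABRA2, GRIA2 and REST, with the mean as a bar and the SD (n = 3) as a whisker. The groups do not overlap in any panel: GLRB and REST are lower after ING2 siRNA and the other 4 genes higher, with GABRA2 near the bottom of the intensity scale.

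Most of the remaining receptor genes had small values above 0. Of the 77, 66 had a log2 change above 0 (85.7%, against 61.7% of all genes), and their median was 0.16 against 0.06. Groups did not overlap in 23 higher and 2 lower receptor genes, or 29.9% and 2.60%, where 22.8% and 13.8% of all genes did so. At an unadjusted limma p under 0.05 there were 21 higher and 1 lower, or 27.3% and 1.30%, against 19.4% and 13.6% of all genes. Both the high share of values above 0 and the low share of falls were also found in genes of equal intensity. With all genes in 10 bins of equal size by mean log2 intensity, the median change was 0.12 to 0.15 in the 4 dimmest bins, which held 63 of the 77 genes, and -0.09 in the brightest. Taken over the bins in which the receptor genes lay, 4.98% of genes were called higher and 1.46% lower, 27.9% and 4.10% had groups that did not overlap, and 78.8% had a value above 0. At those shares 77 genes would hold 3.84 rises, 1.12 falls and 60.6 values above 0. At an unadjusted limma p under 0.05 the bins gave 25.8% higher and 4.53% lower, against 27.3% and 1.30% of receptor genes. Measured from the median of its own bin, the median of the 77 genes stood at 0.04, with 44 genes above their bin's median and 33 below. For the 72 receptor genes alone it stood at 0.05, again with 44 above. The few brighter receptor genes stood higher: in the sixth bin from the dim end their median was 0.16 against 0.05 for all genes, with 4 of 5 above that median. In the seventh it was 0.15 against -0.01, with 3 of 4 above, GLRB being the exception. Of the receptor genes in these bins 0 were called higher, and GRIK5, GRIN1 and CHRNA3 were read by _x_at probe sets. The olfactory receptor genes, of like brightness, had a median change of 0.18, with 72 of 82 above 0 and 4 called higher.

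**Figure D3:**
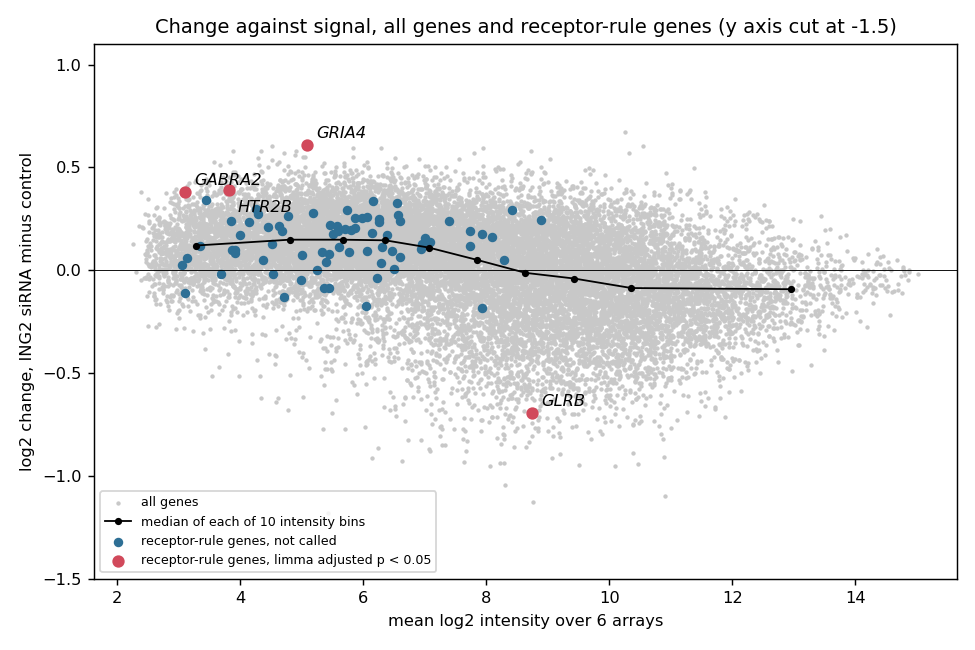
Log2 change after ING2 siRNA against mean log2 intensity over 6 arrays, for all genes (grey), the receptor-symbol genes that did not pass (blue) and the 4 that did (red), with the median of each of 10 equal intensity bins in black. In the 4 dimmest bins, where the black line lies between 0.12 and 0.15, the receptor genes spread to both sides of it; most of the brighter ones lie above it, and GLRB lies far below.

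Array measures are set beside these values. Relative to the control mean, the median receptor gene was at 0.22, 0.07 and 0.14 in ING2 siRNA replicates 1, 2 and 3 and between -0.02 and 0.02 in the controls. All genes of the 4 dimmest bins gave 0.19, 0.08 and 0.14 in the same order. The spread of each array, as the interquartile range of log2 intensity, was 3.84 ± 0.04 for control and 3.64 ± 0.09 for ING2 siRNA arrays (SD, n = 3; two-sided exact permutation p = 0.1, the smallest 3 against 3 arrays can give). A measure of RNA integrity, the log2 excess of GAPDH signal at the 3' end over the 5' end, was 0.205 ± 0.015 for control arrays against 0.316 ± 0.042 for the others (SD, n = 3; the exact permutation p was again 0.1). Among the ING2 siRNA arrays replicate 1, with the largest dim-gene value, had the lowest interquartile range. The ranges were 3.55, 3.74 and 3.64 in replicates 1, 2 and 3. Replicate 1 also had the lowest GAPDH excess, at 0.269 against 0.327 and 0.352. The same measure for ACTB did not separate the groups, at 0.490 ± 0.110 for control and 0.541 ± 0.096 for ING2 siRNA arrays (SD, n = 3, exact permutation p = 0.6). The part of these in the receptor values was not tested. After quantile normalization 52 of the 77 genes had a value above 0 (62.0% of all genes did), after cyclic loess 48 (56.8%) and after median centring 57 (48.6%), and the receptor median was 0.10, 0.07 and 0.09.

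Among kainate receptor genes, GRIK5, a subunit that binds glutamate with high affinity, read 315, 317 and 298 units in controls and 411, 359 and 369 units with ING2 siRNA. Its groups did not overlap and its value was 0.29 (SE 0.09, limma adjusted p = 0.0570). In its bright bin the median change was -0.01, and the value was 0.37 after quantile normalization, where it passed (adjusted p = 0.0409). The other GRIK5 probe sets had values of 0.20 and 0.40. GRIK2, another bright kainate subunit gene, read 297, 347 and 282 units in controls and 274, 350.5 and 335 units with ING2 siRNA. Its groups overlapped, with a value of 0.05 (-0.02 after median centring). GRIK3 had a value of 0.22, GRIK1 of -0.04 and GRIK4 of -0.09. The family median of 0.05 was 0.11 after quantile normalization, 0.07 after cyclic loess and -0.02 after median centring.

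NMDA receptor genes had a median of 0.22 with 6 of 7 above 0, and 0 rose or fell in limma. An unadjusted limma p under 0.05 was found for 2 of the 7, where 19.4% of all genes were higher and 13.6% lower. GRIN3B, a glycine-binding subunit that lowers calcium flow, read 69.5, 60.4 and 62.3 units in controls and 90.7, 79.1 and 73.6 units with ING2 siRNA, a value of 0.34 (SE 0.10, limma adjusted p = 0.0596). GRIN1, the subunit that all NMDA receptors share, read 250, 229 and 214 units in controls and 289, 232 and 263 units with ING2 siRNA, and these overlapped (0.17, SE 0.10). All 5 GRIN1 probe sets had values above 0, from 0.14 to 0.43, and the set at 0.43 passed on its own (limma adjusted p = 0.0436 over all probe sets); 4 of the 5 have the _x_at suffix. The subunit genes GRIN2A, GRIN2B, GRIN2C and GRIN2D had values from 0.07 to 0.26, and GRIN3A had -0.02. GRID1, the only delta receptor gene measured under the rule, had a value of 0.11 (-0.01 after cyclic loess).

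The metabotropic glutamate receptor genes had a median of 0.10 (0.04 after cyclic loess and 0.03 after median centring), and 0 of 7 passed in limma, with 0 at an unadjusted p under 0.05. GRM2, a presynaptic receptor that lowers cyclic AMP, read 126, 136 and 128 units in controls and 152, 138 and 139 units with ING2 siRNA (0.14, SE 0.08). GRM4, of the same inhibitory class, had a value of 0.16 (SE 0.08). The groups of both did not overlap. GRM7 had a value of -0.13 with its brighter probe set, while a dimmer set had 0.39 and passed over all probe sets (limma adjusted p = 0.0297). The sign for GRM7 thus depends on the probe set.

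Among the 15 GABA-A receptor genes, GABRA2 rose and 14 did not pass. The group had a median of 0.12, against 0.12 for all genes of the dimmest bin, and 7 of the 15 lay above their own bin's median; after cyclic loess the median was 0.01. GABRG1, a gamma subunit, read 9.79, 11.4 and 8.09 units in controls and 13.2, 12.1 and 11.5 units with ING2 siRNA, a value of 0.34 (SE 0.12, limma adjusted p = 0.0927). The beta subunit genes GABRB2 and GABRB1 had values of 0.21 and 0.22 with groups that did not overlap. GABRA4, the brightest alpha gene, had 0.19 with overlapping groups, GABRA6 had -0.11, GABRG3 -0.02 and the rho subunit gene GABRR2 0.09 (0.00 after cyclic loess). GABRG1, GABRA2, GABRA4 and GABRB1 are neighbours on chromosome 4, and their values ran from 0.19 to 0.38. GLRB and GRIA2 are also neighbours there, within 1 Mb, with values of -0.69 and 0.30.

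Nicotinic receptor genes had a median of 0.21, with 12 of 14 above 0 and 0 called in limma. An unadjusted limma p under 0.05 was found for 4 of the 14, where 19.4% of all genes were higher and 13.6% lower. CHRNB2, the main beta subunit of brain nicotinic receptors and the brightest of all receptor genes here, read 470, 428 and 412 units in controls and 554, 458 and 542 units with ING2 siRNA. The second ING2 siRNA array lay below control replicate 1, so the groups overlapped (0.24, SE 0.10, limma adjusted p = 0.122). CHRNB1, the beta subunit of the muscle receptor, read 263, 262 and 254 units in controls and 217, 220 and 250 units with ING2 siRNA, the only receptor gene besides GLRB whose groups were separate and lower (-0.18, SE 0.09, adjusted p = 0.163). CHRNA2 (0.19), CHRND (0.24), CHRNE (0.17) and CHRNA10 (0.27, limma adjusted p = 0.0759) were separate and higher, CHRNA3 (0.12) overlapped, and CHRNA5 had a value of -0.17. The dimmer CHRNA10 probe sets had values of 0.03 and 0.02, and the dimmer CHRNE set had 0.04. CHRNA5, CHRNA3 and CHRNB4 lie side by side on chromosome 15 with values of -0.17, 0.12 and 0.23, so the cluster did not share a sign.

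Serotonin receptor genes were above 0 in 15 of 15, with a median of 0.24, and 11 exceeded the median of their bin. After quantile normalization 12, after cyclic loess 11 and after median centring 14 were above 0. Besides HTR2B none passed. HTR1A, an inhibitory receptor, read 79.6, 85.9 and 85.6 units in controls and 111, 93.4 and 111 units with ING2 siRNA, a value of 0.33 (SE 0.09, limma adjusted p = 0.0553), and its groups did not overlap. HTR4, which raises cyclic AMP and was the brightest of the family, read 257, 245 and 272 units in controls and 294, 264 and 310 units with ING2 siRNA, with 1 ING2 siRNA array inside the control range (0.16, SE 0.09). HTR5A had a value of 0.24 and HTR1B of 0.29 (SE 0.14). The HTR3 genes, which encode the ion channel of the family, had values of 0.28 (HTR3B), 0.26 (HTR3A) and 0.09 (HTR3C). The dimmer HTR6 probe set passed on its own (0.47, limma adjusted p = 0.0490), against 0.24 for the brighter one, which did not. Of the dimmer HTR7 and HTR2A probe sets, 4 lay below 0: HTR7 had -0.32 (limma adjusted p = 0.0992) and -0.07, and HTR2A had -0.12 and -0.01.

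The 5 genes that are not receptors had a median of 0.08, and 0 of 5 lay above the median of their bin. GRIK1-AS1, GRIK1-AS2, GABRG3-AS1 and GRID1-AS1 had values of 0.00, 0.08, 0.09 and 0.12, and HTR7P1 of -0.05; for HTR7P1 the dimmer of its probe sets gave 0.37 (limma adjusted p = 0.0798). None passed in limma, and 0 had an unadjusted p under 0.05. Over all members, 43 had several probe sets, and in 28 of these all sets lay on the same side of 0.

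**Figure D4:**
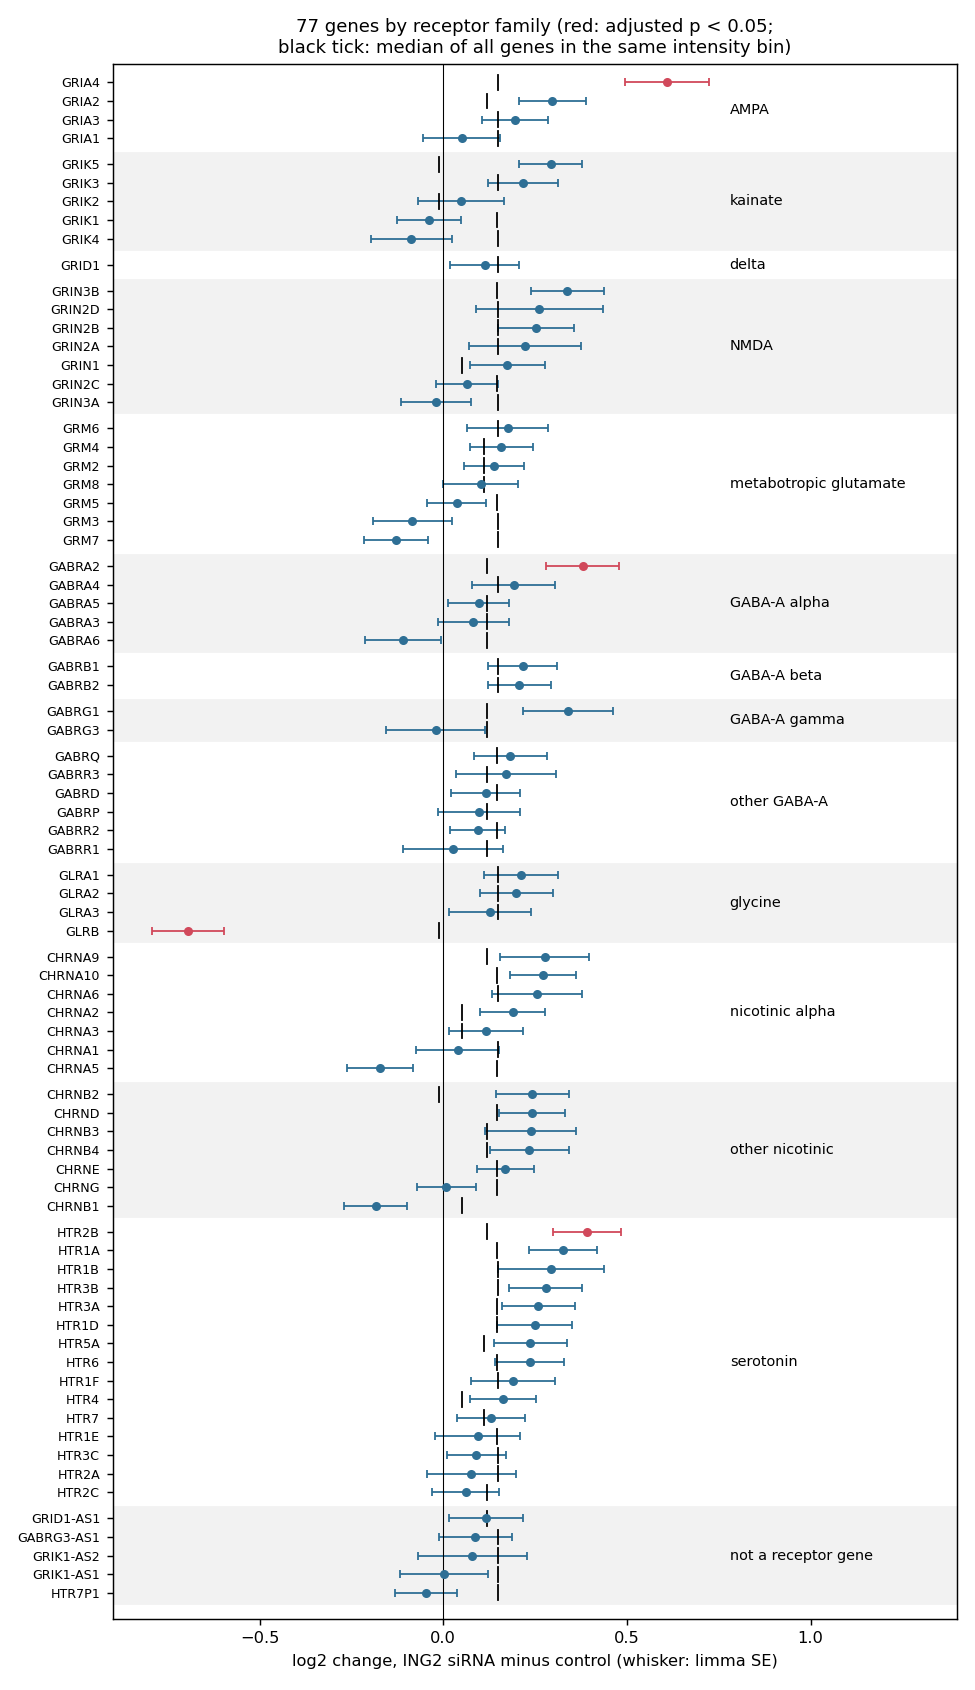
Log2 change after ING2 siRNA with limma SE (n = 3 per group) for all 77 genes, grouped by receptor family; red marks an adjusted p under 0.05 and the black tick is the median of all genes in the same intensity bin. The 15 serotonin receptor genes lie right of 0, and of the 4 red points GLRB, at -0.69, is the one left of it.

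Genes that work with these receptors were described by lists, whose counts stand beside the 3.62% of all genes called higher and 4.67% called lower. In the list of other transmitter receptors (muscarinic, dopamine, adrenergic, histamine, GABA-B and P2X), 3 of 31 rose and 0 fell, with a median of 0.13: the GABA-B subunit gene GABBR2 (0.52, SE 0.14), and the ATP-gated channel genes P2RX6 (0.46, SE 0.11) and P2RX7 (0.34, SE 0.09), with limma adjusted p of 0.0461, 0.0381 and 0.0483. GABBR2 and P2RX7 did not pass after quantile normalization (limma adjusted p = 0.0710 and 0.102), and none of the 3 passed after cyclic loess (0.0917, 0.0617 and 0.135 in the order given for GABBR2, P2RX6 and P2RX7). Among 40 receptor partners and scaffolds 5 rose and 0 fell, with a median of 0.18. NLGN2, the adhesion protein of inhibitory synapses, went from 430, 474 and 401 units to 579, 601 and 722 units (0.54, SE 0.11, limma adjusted p = 0.0266). It was a bright gene, and the median change in its bin was -0.04. MUSK, a kinase of the neuromuscular junction, rose by 0.42 and the AMPA receptor partner SHISA9 rose by 0.34. MUSK and SHISA9 did not pass after quantile normalization (limma adjusted p = 0.0672 and 0.0846) or cyclic loess (0.0792 and 0.123), while NLGN2 passed in both.

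Of 32 genes of transmitter synthesis, transport and breakdown, 4 rose and 1 fell, with a median of 0.21. The GABA-making enzyme GAD2 rose by 0.49 (SE 0.10), the choline carrier SLC5A7 by 0.42 (SE 0.08) and the serotonin-making enzyme TPH1 by 0.42 (SE 0.09). TPH1 has 3 probe sets. Over the alternatives on all 6 arrays its value ranged from 0.07 to 0.44, with limma adjusted p from 0.0115 to 0.491. SLC1A1, a glutamate carrier found outside the nervous system too, went from 230, 339 and 287 units to 193, 201 and 185 units and fell by 0.55 (SE 0.13, limma adjusted p = 0.0359). Of 26 neuronal identity genes the filament gene NEFM rose by 0.51 (SE 0.14) and the growth cone gene GAP43 by 0.35 (SE 0.09), with 0 falls and a median of 0.13. After quantile normalization TPH1, NEFM and GAP43 did not pass (limma adjusted p = 0.0558, 0.0651 and 0.0902), nor did they after cyclic loess (0.0663, 0.0851 and 0.131), where GAD2 also missed (0.0523). Each called gene named from these lists passed in 1 or 2 of the 6 fits with 1 array left out: all 12 passed without ING2 siRNA replicate 2, 9 of them without control replicate 1, and 0 in the other 4 fits, in which 4562 to 5065 of all genes had an unadjusted limma p under 0.05. Against the medians of their own intensity bins, the medians of these 4 lists stood between 0.00 and 0.07.

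REST and its corepressors included 0 genes past the threshold in limma among 13. Their median signal lay at percentile 78.5 of all genes. Their median change was 0.03, or 0.11 measured from the medians of their own intensity bins. REST itself read 162, 222 and 268 units in the controls and 117, 161 and 156 units with ING2 siRNA with its brightest probe set. The groups were separate by a narrow margin, 162 units in the lowest control against 161 in the highest ING2 siRNA array, and the value was -0.57 (SE 0.18, limma adjusted p = 0.0658). The other REST probe sets had values of -0.03 and 0.09. With 1 array left out REST ranged from -0.77 to -0.41, with limma adjusted p from 0.0181 to 0.194, and passed in 2 of 6 fits, without control replicate 1 or ING2 siRNA replicate 2. The mean over its probe sets was -0.17 (limma adjusted p = 0.118). SIN3B, a scaffold of the deacetylase complex, had a value of 0.31 (SE 0.10, adjusted p = 0.0661), SIN3A had 0.20, the CoREST gene RCOR1 had -0.17 and the demethylase gene KDM1A had 0.02. At an unadjusted p under 0.05, 4 of the 13 passed, REST and HDAC2 lower and SIN3B and SIN3A higher, where 13.6% of all genes were lower and 19.4% higher.

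**Figure D5:**
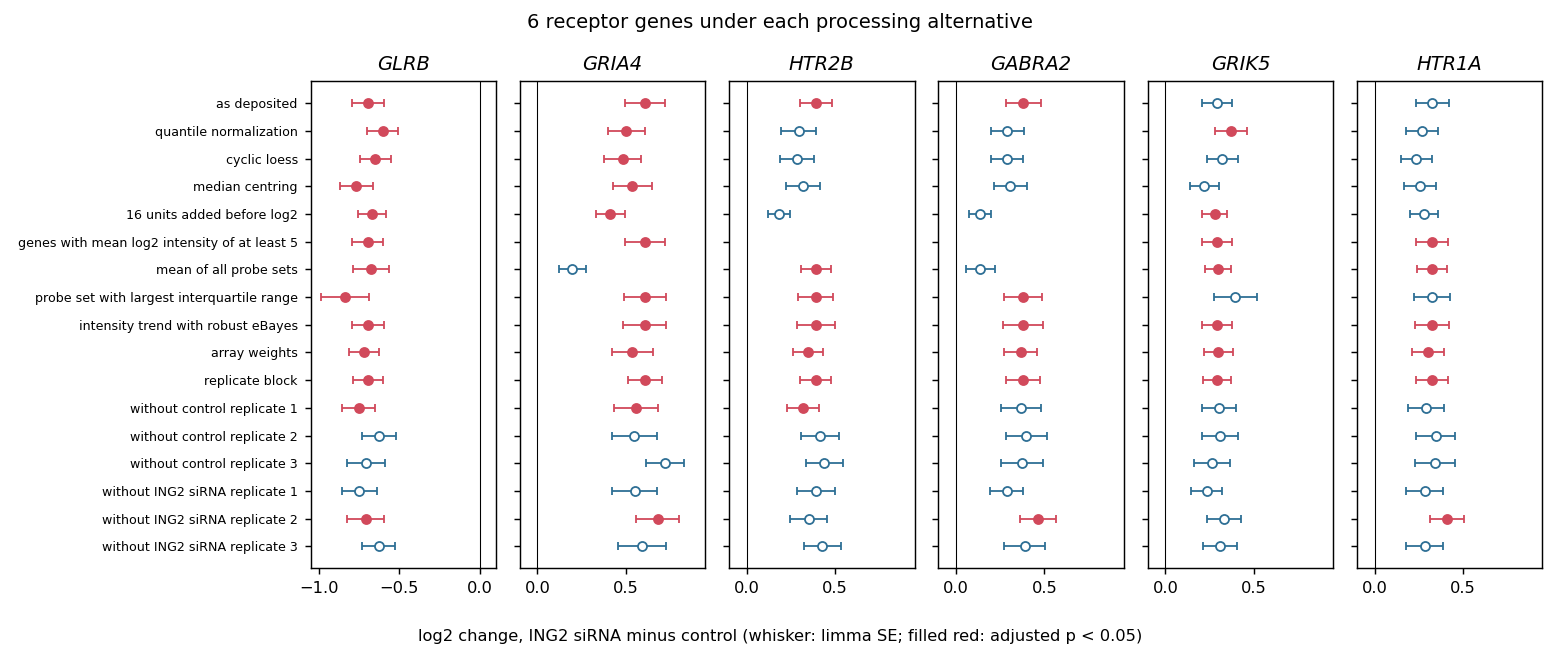
Log2 change with limma SE of GLRB, GRIA4, HTR2B, GABRA2, GRIK5 and HTR1A as deposited and under 16 alternatives; filled red points have an adjusted p under 0.05, and a point is missing where the gene was too dim to be tested. GLRB is filled in each fit on all 6 arrays, and with 1 array left out GLRB and GRIA4 are filled in 2 of 6 fits.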

How the data were processed

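Biotin-labelled cRNA from each of 6 RNA samples went onto a one-colour 3' expression array, per the labels' protocols. The authors deposited linear intensity values for probe sets, from 4.05 to 33803. The submitters' processing notes name RMA and R 2.12; no source used here gives the step back to linear values or any filter. Of 54675 probe sets, 41091 named 1 gene in the platform annotation (2016), whose symbols were brought up to date by gene identifier from a RefSeq table (GRCh38.p14); 1801 naming several genes, 11721 with none listed and 62 controls were left out. Values were put on the log2 scale without a pseudocount or filter, and limma 3.58.1 (R 4.3.3; lmFit, eBayes) tested the groups over 19777 genes, with Benjamini-Hochberg adjustment and a threshold of 0.05. The number of arrays limits the precision. Pairs of arrays correlated across genes (Pearson) at 0.9964 to 0.9981 within controls, at 0.9968 to 0.9972 within ING2 siRNA, and at 0.9923 to 0.9969 across groups.

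Members and lists were chosen with earlier results of these data known. Named genes were the called members, the brightest of each family, the 12 brightest, the 5 largest rises and falls not called, the genes that are no receptors and, in each list, up to 3 called each way or the 2 with the smallest p; some further genes were named once their values were known. Simulated data with known changes were used to test the fit. Alternatives were 3 normalizations, an offset of 16, a filter on dim genes, other probe set choices, another variance model, array weights, a replicate block, each array left out in turn, and a threshold of 0.1. Same-numbered arrays had deviations that correlated at 0.26, 0.29 and -0.02, and differently numbered ones at -0.31 to 0.10. The labels share only replicate numbers, so the main fit took no pairs. These values do not settle whether the numbers mark pairs.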

Additional observations from a re-analysis of the deposited data

How the results depend on the processing

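Over the alternatives, GLRB and GRIA4 kept their direction in all 17, and no called receptor gene changed sign. The count of receptor genes called higher (3 as deposited) was 1 after cyclic loess and after median centring, 5 with an intensity trend and robust eBayes, 6 with the mean of all probe sets and also with the most variable probe set (by interquartile range), 8 with array weights and 11 at a threshold of 0.1. Samples shared only replicate numbers, and with the replicate block 9 were called higher and 1 lower. It ranged from 0 to 7 with 1 array left out, and that called lower from 0 to 1 (limma, with 14 to 26 receptor genes at an unadjusted p under 0.05). Their median moved to 0.0703 after cyclic loess.

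Over all genes, 716 were higher and 924 lower. The counts were 447 higher after cyclic loess, 260 and 1450 after median centring, 1229 and 1391 with the mean of probe sets, 1307 and 1953 with the most variable probe set, 1436 lower with the trend, 1927 and 1931 with array weights, 1630 and 1878 with the replicate block, and 2483 and 2017 at a threshold of 0.1. Without 1 array they ranged from 0 to 1227 higher and from 2 to 1631 lower, with 4562 to 7123 at an unadjusted limma p under 0.05. Rises were 43.7% of calls as deposited, 60.3% after quantile normalization and 15.2% after median centring.

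Of the 77 genes, 66 lay above 0 as deposited, 52 after quantile normalization, 48 after cyclic loess and 57 after median centring. Among the 50 genes named by rule and followed one by one, the sign turned for 11, none of them called as deposited. After quantile normalization GABRG3-AS1 was -0.0027, GRIK1-AS2 -0.022 and GRIK1-AS1 -0.096. After cyclic loess GRID1 was -0.011, GABRG3-AS1 -0.034, GABRR2 -0.00071, GRIK1-AS2 -0.047 and GRIK1-AS1 -0.125. After median centring GRIK2 was -0.024 and GRIK1-AS1 -0.070. With the mean of probe sets GABRG3 was 0.076, GRM7 0.13 and HTR7P1 0.16. With the most variable probe set GRIA3 was -0.067, HTR7P1 0.37 and GRM7 0.39, which passed (limma adjusted p = 0.0231). With array weights GABRG3 was 0.048. Without 1 array GABRG3 ranged from -0.14 to 0.083, GRIK2 from -0.022 to 0.16, GRIK1-AS2 from -0.11 to 0.22, GRIK1-AS1 from -0.12 to 0.085, HTR7P1 from -0.094 to 0.0013 and GRIK4 from -0.17 to 0.0081. The cause of these changes was not tested. With genes under a mean log2 intensity of 5 left out, 52 of the 77 were tested.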
